A study of Mus musculus with 6 samples.

Results

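The genes described here encode the respiratory chain and ATP synthase of mitochondria, as far as these proteins are made from nuclear genes. They were taken by name: protein-coding genes whose symbol begins with Nduf, Uqcr, Sdha to Sdhd, Cox4 to Cox8 or Atp5, and the 2 cytochrome genes Cyc1 and Cycs. The rule found 97 of the 17313 genes in the table, and it used no measured value. By role they were 7 core and 30 accessory subunits of complex I with 8 of its assembly factors, 4 subunits of complex II with 4 assembly factors, 9 genes of complex III, cytochrome c, 17 genes of complex IV and 17 of complex V. A further 4 rows matched by name but were pseudogenes and were left out.

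RNA was measured in bone marrow-derived macrophages, cells grown in culture from mouse marrow. The mice were C57BL/6 and all carried floxed alleles of Hdac2, the gene of a histone deacetylase. All had also been given LLC1 Lewis lung carcinoma cells intravenously, with marrow collected at day 20. Mice that had only the floxed alleles are called WT (3 libraries) and those that also had LysMCre are called KO (3 libraries). LysMCre is driven by the Lyz2 locus and acts in myeloid cells, so cells of other lineages in a culture would keep the floxed gene intact. The design asks what inactivation of Hdac2 does in macrophages of tumour-bearing animals. Whether each library came from its own mouse is not stated, so p-values describe the spread between these samples, and part of it may be technical.

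The respiratory chain passes electrons from NADH, through complex I, or from succinate, through complex II, to coenzyme Q, then through complex III and cytochrome c to complex IV, which reduces oxygen to water. Complexes I, III and IV pump protons across the inner membrane, and ATP synthase, complex V, uses their return to make ATP. Macrophages use this machinery to different degrees in different states: alternative activation is known for oxidative metabolism, while inflammatory activation lowers respiration and lets succinate accumulate.

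The values are reads per gene that had been multiplied by 1 factor per library and rounded, called scaled counts here. The factors, read from which whole numbers never occur or occur too often, were 1.017, 1.095 and 1.001 in WT 1 to WT 3 and 0.932, 0.954 and 0.974 in KO 1 to KO 3. Reads over all genes were therefore about 5290000 to 5770000 in WT and 5850000 to 6240000 in KO. The scaled totals were 5704313 to 5837994 in all 6 libraries, so undoing the factors puts back the greater depth of the KO libraries and moves the differences of all genes upward by nearly the same amount. The factor of WT 3 rests on 1 missing number. The WT libraries did not form 1 group: Xist, an RNA of cells with 2 X chromosomes, was at 5243, 0 and 74 in WT 1 to WT 3 and between 3298 and 4997 in KO, and genes of the Y chromosome were high in WT 2 and WT 3. Summed markers of fibroblasts and marrow stroma were 12097 in WT 1, 5319 and 5225 in WT 2 and WT 3, and 12830 to 16196 in KO. The counts below, and the genes whose values this moves, are therefore also given without WT 1, where genotype and this split coincide, and with WT 1 as the only WT library. The 8 macrophage markers were all present, with sums of 12103 to 12730 in WT and 11655 to 12028 in KO. As deposited 6 of them were lower and 2 higher in KO, with a median log2 difference of -0.15. At an unadjusted limma p under 0.05, 5 were lower and 0 higher, against 9.68% and 14.7% of all genes. Among these 5 was Lyz2, whose locus drives LysMCre in the KO mice. Lyz2 was at 1068, 1144 and 1055 in WT against 930, 942 and 953 in KO. The part of the Cre allele in this difference was not tested. Markers of T and NK cells, erythroid cells and adipocytes were not analysed here. Hdac2 itself was at 534, 482 and 518 in WT against 392, 387 and 375 in KO, without overlap, a log2 difference of -0.41 ± 0.057 (SE). Its limma adjusted p was 0.158 and its two-sided exact permutation p was 0.1, the smallest that 3 against 3 libraries allow. Which exon was removed is not known here, and reads from exons that remain count for Hdac2.

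Most of the genes stood slightly lower in KO as deposited, and none of these differences passed the test across all genes. In the KO mean 84 of the 97 were lower (86.6%, against 50.9% of the 13260 genes tested) and 13 were higher, although with the library factors undone, which leaves depth uncorrected, 32 were lower and 65 higher (against 23.6% and 76.4% of all genes). The median log2 difference, KO minus WT on log2(scaled count + 1), was -0.09 over the 97 genes and -0.0046 over all genes tested. With the factors undone these medians were 0.12 over all genes and 0.03 over the 97. Below the median of all genes lay 83 of the 97 as deposited, after scaling to the library total or the upper quartile and with the factors undone, and 86 under cyclic loess. At an adjusted p under 0.05 (limma, Benjamini-Hochberg) 0 of the 97 and 0 of the 13260 genes passed, and the smallest adjusted p among the 97 was 0.158. At an unadjusted p under 0.05, 12 were lower (12.4%, near the 9.68% of all genes) and 1 was higher (1.03%, against 14.7%). Groups did not overlap for 34 lower genes (35.1%, against 13.4%) and for 5 higher genes (5.15%, against 16.1%). With the library factors undone 5 were higher and 0 lower at an unadjusted p under 0.05, against 25.5% and 3.17% of all genes, and 17 higher and 2 lower did not overlap, against 31.9% and 3.64%. Under cyclic loess 14 were lower and 1 higher at an unadjusted p under 0.05, against 8.29% and 14.3%, and 41 lower and 0 higher did not overlap, against 12.3% and 16.4%. All 97 met the minimum of 10 in at least 3 libraries, but Cox4i2, Cox6a2, Cox6b2 and Ndufa4l2 met it through the KO libraries, so their direction is partly fixed by that filter.

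**Figure D1:**
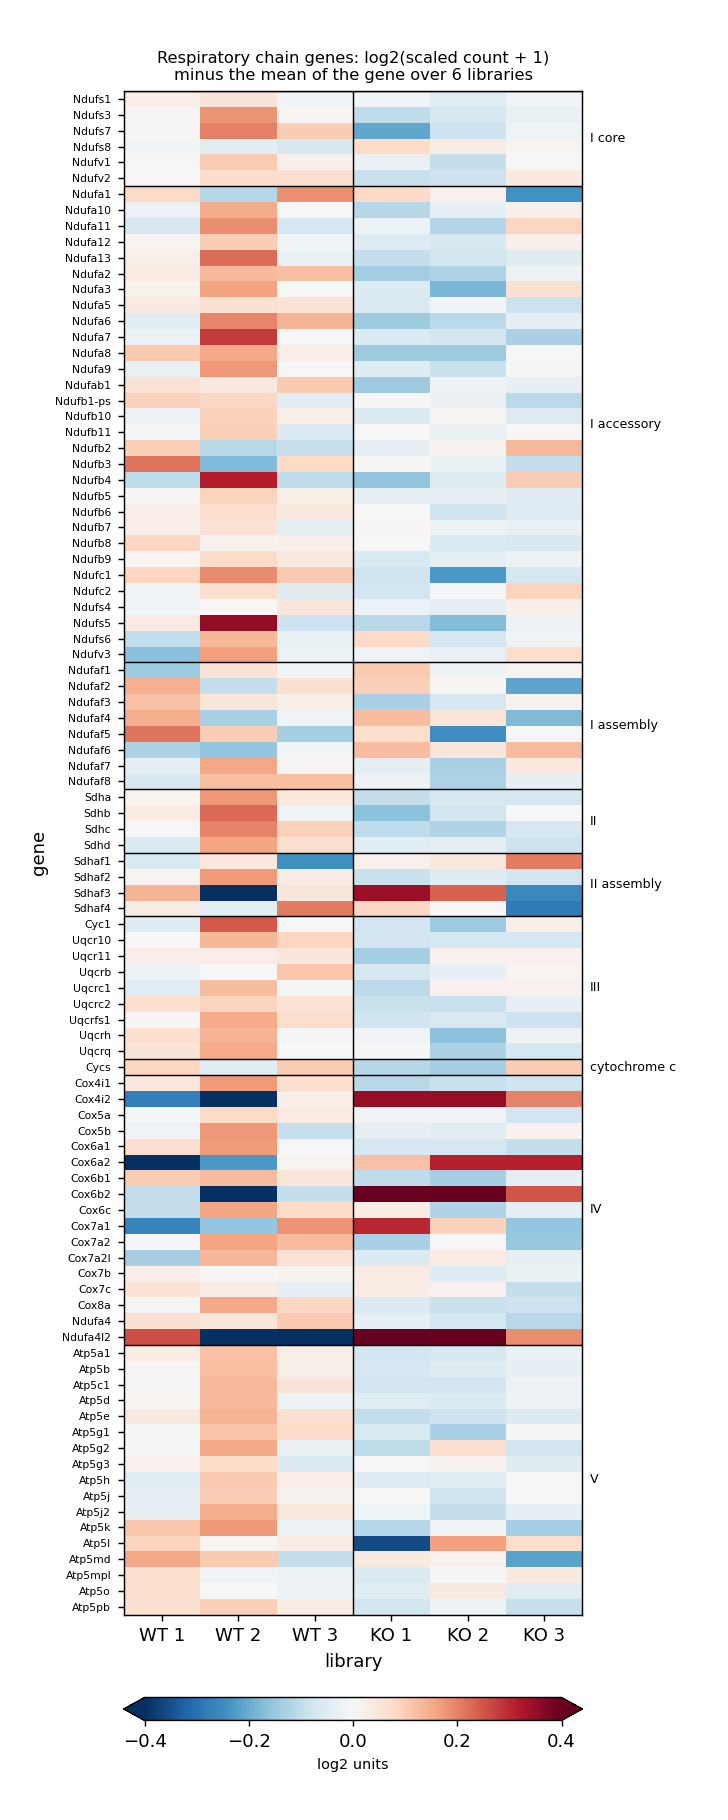
Each row is a gene of the 97 (1 is not drawn), each column 1 library, and the colour is log2(scaled count + 1) minus the mean of that gene over the 6 libraries, with red above and blue below the mean. WT 2 is the reddest column, being the highest library for 64 of the 97 genes, and the KO columns are mostly pale blue except for the red rows of Cox4i2, Cox6a2, Cox6b2 and Ndufa4l2; with the library factors undone the KO columns would be redder by about 0.12 relative to WT for all genes alike.

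As deposited, WT 2 was the highest library for 64 of the 97 genes, and for 4698 of the 13260 tested genes, whereas KO 1 was the lowest for 32 of the 97 and KO 2 for 27. In reads before scaling, where WT 2 had the smallest total and KO 1 the largest, WT 2 was the highest for 9 of the 97 and KO 1 for 36. Leaving out WT 2 left 5 lower genes in place of 12 at an unadjusted p under 0.05 (against 5.84% of all genes), and leaving out WT 3 also left 5 (against 4.75%). It was 1 without KO 1 or KO 2 (against 3.54% and 3.63% of all genes) and 8 without KO 3 (against 9.89%). The count over all genes fell too in each of these fits but that without KO 3.

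The choice of WT libraries also set which genes were called. Without WT 1, Sdhc was called lower (limma adjusted p 0.0495) and Ndufa4l2 higher (limma adjusted p 0.0221), against 5.07% and 12.8% of all genes called in those directions. In that fit 83 of the 97 were lower and 14 higher (against 51% and 49% of all genes). At an unadjusted p under 0.05, 14 were lower and 2 higher (against 14.1% and 18.7%), and 49 lower and 7 higher did not overlap (against 25.2% and 24.5%). With WT 1 as the only WT library, 75 of the 97 were lower and 22 higher, against 50.4% and 49.6% of all genes. In that fit 0 passed at an adjusted p, and at an unadjusted p under 0.05 there were 0 in either direction, against 1.06% lower and 5.17% higher of all genes. The KO libraries all lay below WT 1 for 50 of the 97 and all above it for 11, against 24.6% and 28.4% of all genes.

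Summed over the 97 genes the scaled counts were 26285, 28310 and 26546 in WT against 25169, 25185 and 25582 in KO, so no KO library reached the lowest WT library. The mean over KO libraries was 0.936 of that over WT libraries (25312 ± 234 against 27047 ± 1102, SD, n = 3). Before scaling the same sums were estimated at 25852, 25850 and 26511 in WT against 27007, 26396 and 26255 in KO, which overlap, with a ratio of 1.02. The reads over these genes thus differed by at most 1.04 times between libraries while the reads over all genes differed by 1.18 times, and the scaled sums differed by 1.12 times. As a share of its library, which amounts to scaling to the library total, the 97 genes took 0.450%, 0.489% and 0.460% in WT. In KO they took 0.433%, 0.433% and 0.448%. Each KO library thus gave them a smaller share than each WT library. Each KO library also had more reads over all genes than each WT library. Genotype and depth therefore cannot be told apart in this share. In bulk RNA, fewer cells of a type and less RNA per cell cannot be told apart, and this holds for each difference below.

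**Figure D2:**
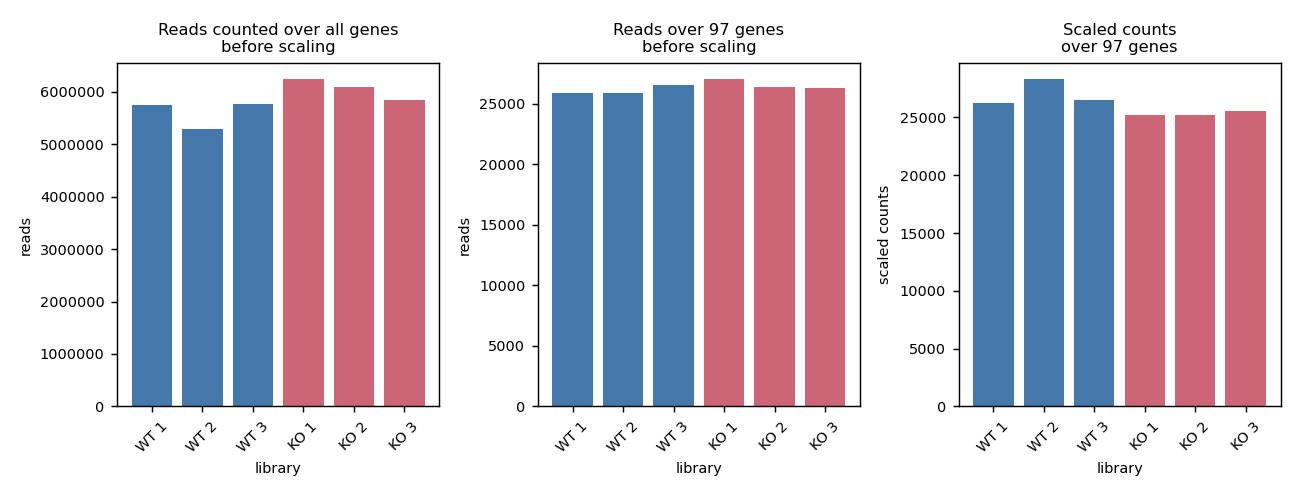
The bars give, for each library, the reads over all genes before scaling, the reads over the 97 respiratory genes before scaling and the scaled counts over those genes, with WT in blue and KO in red. The respiratory reads lie between 25850 and 27007 in all 6 libraries, while the reads over all genes are higher in each KO library than in each WT library; after scaling the KO bars of the 97 genes are the lower ones.

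By class the medians were small and mostly on the same side. As deposited the median log2 difference was -0.08 for the core, the accessory and the assembly genes of complex I, -0.15 for complex II, -0.13 for complex III, -0.10 for cytochrome c, -0.04 for complex IV and -0.10 for complex V, and it was 0.02 for the complex II assembly factors, a sign that turned under cyclic loess (-0.0079) and with WT 1 as the only WT library (-0.06). With the library factors undone these medians became 0.04, 0.04, 0.04, -0.03, -0.01, 0.02, 0.08, 0.02 and 0.14, in the same order with the assembly factors of complex II last, against 0.12 for all genes tested. All classes but those assembly factors thus lay below the median of all genes in either case. Within complex IV, 12 subunits found in most tissues had a median of -0.12 and 5 isoforms restricted to certain tissues had one of 0.60.

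**Figure D3:**
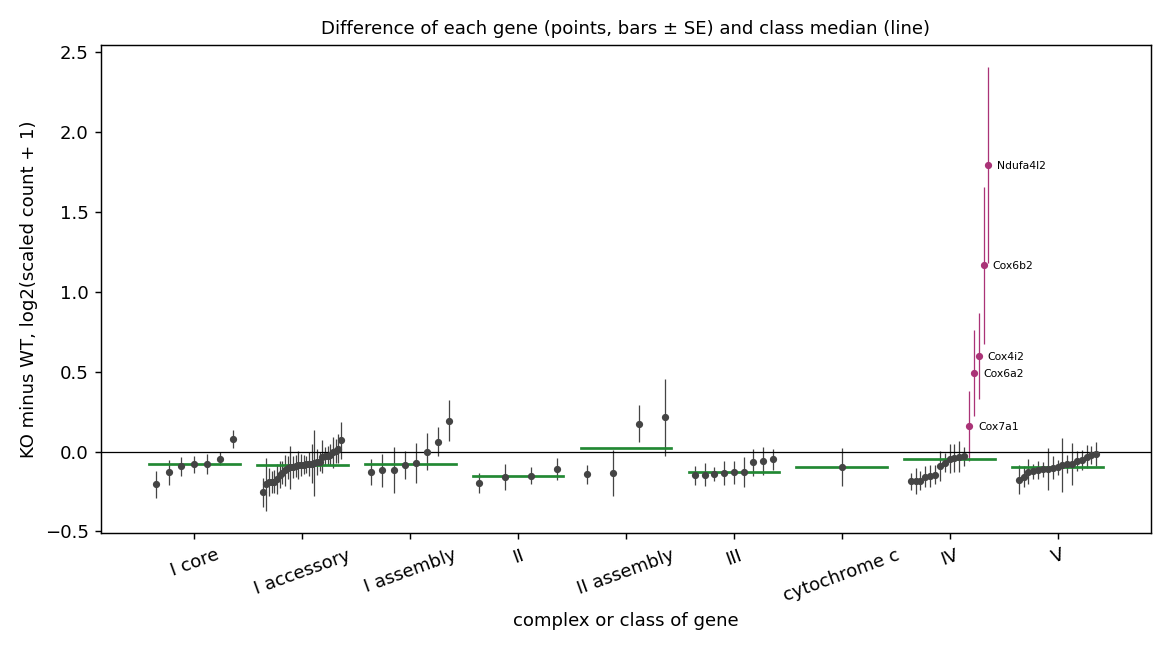
Points are the log2 differences (KO minus WT, log2(scaled count + 1)) of single genes by class, bars are ± SE from limma, and green lines are class medians; the restricted isoforms of complex IV are drawn in purple. Most points lie just below 0, with class medians from -0.15 to 0.02, and all points would shift upward by about 0.12 with the library factors undone.

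Promoters of 2 pairs of genes are printed because the members of each pair serve the same complex and differed in sign: Cox6b1 was lower and its restricted isoform Cox6b2 higher in KO, and Ndufs7 was lower and Ndufs8 higher among the core subunits of complex I. Each run is the 250 bases before the annotated start, 5′ to 3′ on the strand of the gene, from RefSeq on GRCm38.p6. Capitals mark matches, on either strand, to CCGGAAG (bound by ETS factors such as GABP), GCATGCG (NRF1), ATGGCGG (YY1), GGGCGG (the GC box bound by SP1) and CCAAT.
Cox6b1, chr7:30626115-30626364, minus strand: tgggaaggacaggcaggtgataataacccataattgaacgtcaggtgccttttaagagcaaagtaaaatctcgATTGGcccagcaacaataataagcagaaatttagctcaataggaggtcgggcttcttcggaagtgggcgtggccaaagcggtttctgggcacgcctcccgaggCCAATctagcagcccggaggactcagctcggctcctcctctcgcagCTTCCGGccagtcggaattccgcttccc
Cox6b2, chr7:4753095-4753344, minus strand: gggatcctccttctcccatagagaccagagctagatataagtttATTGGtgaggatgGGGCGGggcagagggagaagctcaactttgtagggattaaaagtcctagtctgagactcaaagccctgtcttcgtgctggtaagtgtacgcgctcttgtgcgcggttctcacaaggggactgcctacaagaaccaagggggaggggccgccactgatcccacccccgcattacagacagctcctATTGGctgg
Ndufs7, chr10:80249199-80249448, plus strand: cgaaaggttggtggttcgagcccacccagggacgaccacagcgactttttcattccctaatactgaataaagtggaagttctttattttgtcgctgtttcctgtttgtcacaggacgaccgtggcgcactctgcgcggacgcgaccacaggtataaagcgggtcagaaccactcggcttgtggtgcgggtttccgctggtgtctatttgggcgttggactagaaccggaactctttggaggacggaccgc
Ndufs8, chr19:3912775-3913024, minus strand: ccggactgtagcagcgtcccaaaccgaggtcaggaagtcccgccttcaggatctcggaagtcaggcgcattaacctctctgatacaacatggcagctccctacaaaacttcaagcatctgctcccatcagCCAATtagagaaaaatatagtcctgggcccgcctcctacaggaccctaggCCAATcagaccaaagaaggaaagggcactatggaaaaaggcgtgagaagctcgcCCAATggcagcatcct
The Cox6b1 run held 1 ETS match and 2 CCAAT matches, while that of Cox6b2 held 1 GC box and 2 CCAAT matches. The Ndufs8 run held 3 CCAAT matches, and the Ndufs7 run held none of the 5 motifs. The annotated start of Ndufs7 there lies 328 bases inside the edge of the gene in the table.

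Promoters were listed for 79 of the 97 genes. The ETS motif was found in 20.3% of these genes, against 7.83% of all 27025 genes with a listed promoter and 15.6% of the tested genes among them. The NRF1 motif was found in 13.9%, against 3.43% and 6.15%, and the YY1 motif in 7.59%, against 2.58% and 4.56%. The GC box was present in 43.0%, against 35.4% and 63.6%, and CCAAT in 44.3%, against 37.5% and 40.6%. These shares were not tested against each other. Genes with and without a motif had like median log2 differences, for example -0.10 and -0.08 for the ETS motif and -0.10 and -0.08 for the GC box. A match describes letters in this window and shows no bound factor.

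Complex I takes electrons from NADH through a flavin and a chain of iron-sulfur clusters, all held by its core subunits. Of the 7 core genes 6 were lower in the KO mean (against 50.9% of all genes), 2 of them without overlap between groups (against 13.4%). Ndufs7 (ENSMUSG00000020153, chromosome 10, 80249121 to 80256794, mm10) encodes the subunit that holds the last iron-sulfur cluster before coenzyme Q. It was at 268, 307 and 286 in WT against 231, 252 and 264 in KO. No KO library reached the lowest WT library, by a margin that was small beside the spread within each group. The log2 difference was -0.20 ± 0.083, with a limma adjusted p of 0.204.

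Ndufs8 (ENSMUSG00000059734, chromosome 19, 3908863 to 3912774), which carries a pair of clusters of the same chain, was at 272, 266 and 262 in WT against 290, 280 and 276 in KO. It was the only core gene higher in KO, and its groups did not overlap. Its log2 difference was 0.08 ± 0.057 with a limma adjusted p of 0.425, and it was 0.08 under cyclic loess. Ndufs3 was at 214, 242 and 215 in WT against 199, 204 and 209 in KO, also without overlap, with a limma adjusted p of 0.347. The largest core subunit, Ndufs1, stood at 724 ± 15.6 and 702 ± 9.54 (SD, n = 3). Its groups overlapped, as did those of the flavin-site subunit Ndufv1 (464 ± 18 and 439 ± 15) and of Ndufv2 (354 ± 9.29 and 332 ± 16.5).

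Of the 30 accessory subunits, which surround the core and stabilise it, 27 were lower in the KO mean and 3 higher. Groups did not overlap for 11 of the 30, all lower, against 13.4% of all genes. An unadjusted p under 0.05 was found for 3, all lower, a share near the 9.68% of all genes: Ndufc1, Ndufa8 and Ndufa2. Ndufc1 (ENSMUSG00000037152, chromosome 3, 51404677 to 51408988), a small membrane subunit, was at 146, 157 and 148 in WT against 130, 117 and 131 in KO. Its log2 difference of -0.25 ± 0.090 was the lowest of the 97 genes, with a limma adjusted p of 0.170. Ndufa8 was at 313, 324 and 297 in WT against 264, 264 and 291 in KO, and Ndufa2 was at 224, 240 and 238 in WT against 199, 201 and 216 in KO. Neither overlapped, and their limma adjusted p-values were 0.176 and 0.183. Ndufa6 was at 211, 249 and 239 against 197, 202 and 212, where KO 3 passed WT 1 by 1 scaled count. Ndufab1, the mitochondrial acyl carrier protein, was at 213, 210 and 220 against 185, 202 and 200 and did not overlap.

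The accessory genes on the X chromosome overlapped between the groups. Ndufb11 was at 269, 289 and 260 in WT against 271, 265 and 270 in KO, and Ndufa1 at 119, 104 and 128 and at 119, 114 and 95. With Cox7b of complex IV, at 245, 241 and 243 in WT against 246, 232 and 236 in KO, these are the 3 X-linked members, and each overlapped. Their log2 differences were -0.02 ± 0.065, -0.10 ± 0.14 and -0.03 ± 0.060, while the libraries differed in Xist as given above. The accessory genes that were higher in KO overlapped between groups: Ndufb2 was at 81.3 ± 6.66 and 85.3 ± 5.13, Ndufv3 at 434 ± 50.3 and 438 ± 16.6 and Ndufc2 at 216 ± 8.74 and 217 ± 12.6 (SD, n = 3).

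The complex I assembly factors, which insert cofactors and join modules but are absent from the finished enzyme, gave 2 higher and 6 lower. Ndufaf6 was at 47, 46 and 51 in WT against 56, 53 and 56 in KO, without overlap. Its log2 difference was 0.19 ± 0.13 with a limma adjusted p of 0.403, and it was 0.03 under cyclic loess. Ndufaf3 was at 170, 162 and 159 in WT against 143, 149 and 158 in KO, lower by 1 scaled count between the nearest libraries. Ndufaf1, which acts on the membrane arm, overlapped at 133, 153 and 146 against 158, 145 and 148. A list of 11 further complex I assembly factors, whose names do not begin with Nduf, gave 8 higher and 3 lower with a median of 0.04, and 0 passed the adjusted threshold. In that list Tmem70 was at 257, 225 and 248 in WT against 283, 281 and 268 in KO, and Dmac1 at 222, 221 and 221 and at 198, 205 and 188, with limma adjusted p-values of 0.189 and 0.197.

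Complex II is succinate dehydrogenase, the enzyme that the citric acid cycle and the chain share, and all of its subunits are nuclear-encoded. All 4 were lower in the KO mean. Their summed scaled counts in KO were 0.898 of those in WT, the lowest ratio of the 9 classes. Sdhc (ENSMUSG00000058076, chromosome 1, 171127165 to 171150603), a membrane anchor with the quinone site, was at 472, 541 and 502 in WT against 439, 433 and 449 in KO. All KO libraries lay below all WT libraries and close to each other. The log2 difference was -0.20 ± 0.063 with a limma adjusted p of 0.160. Without WT 1 it was -0.24 with an adjusted p of 0.0495, and with WT 1 alone it was -0.10. Sdha, the flavoprotein that oxidises succinate, was at 1161, 1303 and 1188 in WT against 1080, 1105 and 1102 in KO. Its groups did not overlap either, and its log2 difference was -0.15 ± 0.056 with a limma adjusted p of 0.177.

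The iron-sulfur subunit Sdhb was at 449, 515 and 434 against 392, 417 and 440, and the second anchor Sdhd at 454, 528 and 496 against 459, 462 and 447. Both overlapped between groups, and in each of the 4 genes WT 2 was the highest library. Sdhaf2, which attaches the flavin to Sdha, was at 422, 471 and 428 in WT against 394, 405 and 397 in KO, without overlap, at a log2 difference of -0.14 ± 0.060 and a limma adjusted p of 0.215. The remaining assembly factors overlapped: Sdhaf1 was at 106 ± 10.6 and 120 ± 8.72, Sdhaf3 at 71.3 ± 16.1 and 82.7 ± 17.4 and Sdhaf4 at 88.3 ± 7.77 and 80.7 ± 10.4 (SD, n = 3).

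Complex III moves electrons from coenzyme Q to cytochrome c. All 9 genes were lower in the KO mean as deposited, against 50.9% of all genes, and 6 did not overlap, against 13.4%. The median was -0.13, or -0.01 against 0.12 for all genes with the factors undone. Uqcrc2 (ENSMUSG00000030884, chromosome 7, 120635176 to 120659524), a core protein on the matrix side, was at 569, 578 and 564 in WT against 511, 511 and 531 in KO. The WT libraries lay close to each other and all above KO. Its log2 difference was -0.14 ± 0.044 with a limma adjusted p of 0.158, and it kept this size without WT 1 and with WT 1 alone (both -0.14). The Rieske iron-sulfur protein gene Uqcrfs1 was at 351, 388 and 367 in WT against 331, 335 and 330 in KO, with a limma adjusted p of 0.189.

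The partner core protein Uqcrc1 was at 649, 730 and 667 against 622, 677 and 677, and overlapped. Cyc1, which encodes cytochrome c1, was at 388, 476 and 401 against 381, 363 and 409, again with WT 2 highest and an overlap between groups. The small subunits Uqcr10 (205 ± 9.61 and 186 ± 0.577), Uqcrh (283 ± 14 and 258 ± 15) and Uqcrq (232 ± 12.2 and 211 ± 9.02; SD, n = 3) did not overlap. Cycs, the mobile carrier cytochrome c, was at 92, 84 and 93 in WT against 80, 79 and 93 in KO, with a log2 difference of -0.10 ± 0.12. A fixed list of 6 complex III assembly factors gave 3 higher and 3 lower, with a median of 0.02. Its smallest p belonged to Ttc19, at 186, 128 and 132 in WT against 226, 219 and 166 in KO, with overlap. The log2 difference of Ttc19 was 0.46 ± 0.19 with a limma adjusted p of 0.208. Without WT 1 it was 0.63 with a limma adjusted p of 0.0429, and with WT 1 alone it was 0.12.

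Complex IV reduces oxygen, and several of its nuclear subunits exist as a form found in most tissues and a form known from muscle, lung, testis or hypoxic cells. The 12 general subunits were all lower in the KO mean as deposited (against 50.9% of all genes), 6 without overlap (against 13.4%). Their median was -0.12, or 0.0046 against 0.12 for all genes with the library factors undone. Cox4i1 (ENSMUSG00000031818, chromosome 8, 120668222 to 120674207), the general form of subunit 4, was at 463, 506 and 471 in WT against 416, 423 and 425 in KO. The KO libraries lay close to each other and well below the lowest WT library. The log2 difference was -0.19 ± 0.053, with an unadjusted limma p of 0.0124, the smallest of the 97 genes, and an adjusted p of 0.158. Cox6b1 (ENSMUSG00000036751, chromosome 7, 30616861 to 30626151) was at 314, 320 and 302 in WT against 273, 267 and 285 in KO, at -0.18 ± 0.059 with a limma adjusted p of 0.160. These 2 genes differed by a like amount when WT 1 was the only WT library, at -0.14 and -0.19.

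Cox6a1 was at 297, 319 and 283 against 270, 270 and 265, Cox8a at 240, 267 and 255 against 231, 226 and 227, and Cox5a at 285, 303 and 293 against 284, 284 and 272. These groups did not overlap, in the case of Cox5a by 1 scaled count. Ndufa4, a complex IV subunit in spite of its name, was at 237, 235 and 244 in WT against 222, 216 and 210 in KO, with a limma adjusted p of 0.222. Cox7a2 came close, at 217, 243 and 238 against 199, 218 and 196, with KO 2 above WT 1 by 1. Cox5b (200 ± 19.1 and 193 ± 4.36) and Cox7a2l (259 ± 24.1 and 251 ± 7.94, SD, n = 3) overlapped. A list of 24 complex IV assembly factors had 5 higher and 19 lower with a median of -0.07. Its smallest p belonged to Cox15, which makes heme a, at 488, 516 and 489 in WT against 457, 417 and 467 in KO, with a limma adjusted p of 0.195.

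The restricted isoforms went the other way at low levels, a direction that the filter partly fixes for all but Cox7a1. Ndufa4l2 (ENSMUSG00000040280, chromosome 10, 127514967 to 127517154), a relative of Ndufa4 induced by HIF-1 in hypoxia, was at 20, 7 and 4 in WT against 34, 49 and 19 in KO. WT 1 lay above KO 3 by 1 scaled count, and WT 2 and WT 3 below every KO library. The log2 difference was 1.79 ± 0.61 with a limma adjusted p of 0.165, 2.37 with an adjusted p of 0.0221 without WT 1, and 0.64 with WT 1 alone. Which WT library it was set against thus moved the size of this difference. Cox6b2 (ENSMUSG00000051811, chromosome 7, 4751792 to 4753094), known from testis, was at 10, 3 and 10 in WT against 22, 16 and 13 in KO, and Cox4i2, known from lung and from hypoxia, at 12, 9 and 15 and at 19, 19 and 17. Cox6a2, the heart and muscle form, was at 8, 10 and 12 in WT against 13, 15 and 15 in KO. All 3 did not overlap, by as little as 1 scaled count for Cox6a2, and the log2 differences were 1.17 ± 0.49, 0.60 ± 0.27 and 0.49 ± 0.27 with limma adjusted p-values of 0.212, 0.235 and 0.306. Under cyclic loess they were 0.73, 0.21 and 0.07. Cox7a1, also a heart and muscle form, overlapped at 24, 26 and 33 against 36, 31 and 26, and its sign turned under cyclic loess, to -0.11.

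Within a library, the share of each restricted form in its pair needs no scaling between libraries. Per base of the principal transcript, Cox4i2 made up 2.56% ± 0.700 of Cox4i1 plus Cox4i2 in WT and 4.35% ± 0.295 in KO (SD, n = 3). Cox6a2 made up 2.74% ± 0.631 and 4.29% ± 0.355 of its pair, and Cox6b2 2.54% ± 1.35 and 6.13% ± 1.63. The share of Ndufa4l2 beside Ndufa4 was 5.22%, 1.91% and 1.06% in WT and 9.09%, 12.9% and 5.58% in KO. In 4 of the 5 pairs every KO library had a higher share than every WT library. In each of these pairs the restricted form remained a small minority. These 4 forms met the minimum of 10 through the KO libraries, so the direction of their shares is partly fixed by that filter. Cox7a1 was the largest minority, at 16.6% ± 2.0 and 20.2% ± 2.68, and overlapped. Markers of other cells differed between the same libraries. All 8 stromal markers were higher in the KO mean, with the sums given above. Of 5 epithelial or LLC1 markers 2 were measured, with sums of 25, 10 and 2 in WT against 101, 74 and 78 in KO, most of it from the keratin gene Krt19. Of 4 striated muscle markers the actin gene Acta1 was measured, at 27, 4 and 1 in WT against 61, 44 and 61 in KO. Of 4 B cell markers 2 were measured, with sums of 10 to 21 in WT against 29 to 40 in KO, and of 3 mast cell and basophil markers 2, with sums of 13 to 40 and 43 to 98. Markers of osteoclasts, which macrophages can form, were lower: the 4 measured of 5 summed to 497, 1028 and 892 in WT against 339, 356 and 403 in KO. Among them Dcstamp was at 143, 615 and 472 against 28, 58 and 147, with KO 3 above WT 1, and Acp5 at 163, 243 and 276 against 94, 110 and 98. The 2 measured of 7 neutrophil markers summed to 303 to 329 and 297 to 357, and of these S100a8 was at 20, 23 and 26 against 15, 9 and 12. The part of these cells in the isoform shares was not tested.

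**Figure D4:**
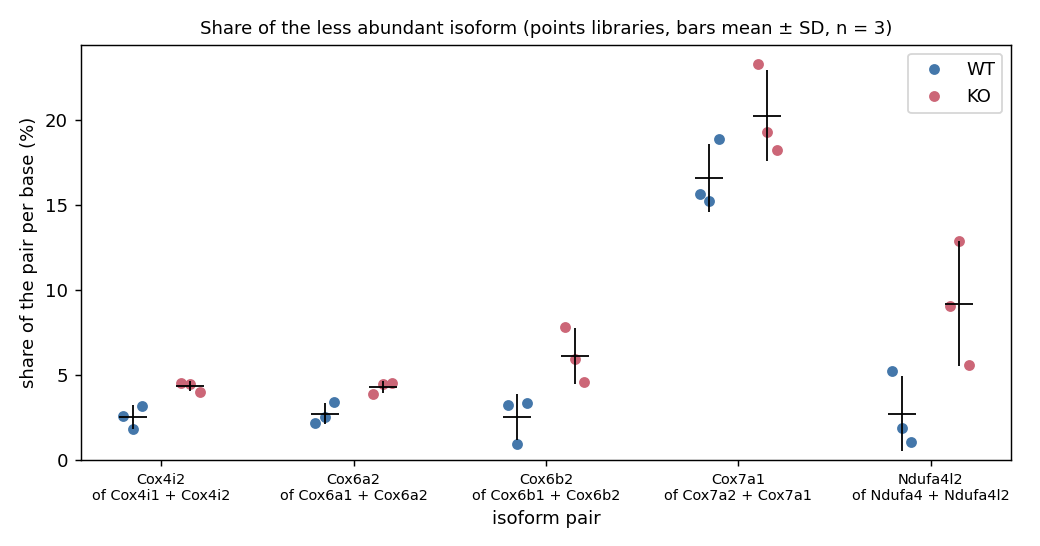
Points are libraries (WT blue, KO red) and show the percentage that the less abundant isoform contributes to its pair, per base of the principal transcript, with bars for the mean ± SD of 3 libraries. In 4 pairs the KO points lie above all WT points, with KO means of 4.29% to 9.19% against WT means of 2.54% to 2.74%, and in the pair of Cox7a1 and Cox7a2 the points overlap.

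ATP synthase has a catalytic head, F1, and a membrane ring, Fo, turned by protons. All 17 genes were lower in the KO mean, against 50.9% of all genes, and 5 of them did not overlap, against 13.4%. The median was -0.10, or 0.02 against 0.12 for all genes with the factors undone. The catalytic beta subunit gene Atp5b (ENSMUSG00000025393, chromosome 10, 128083273 to 128090391) was at 1246, 1349 and 1261 in WT against 1184, 1201 and 1214 in KO. At 0.648 scaled counts per base of the principal transcript it was the most abundant of the 97 genes, and its groups did not overlap. Its partner in the head, the alpha subunit gene Atp5a1, was at 1321, 1405 and 1315 in WT against 1228, 1238 and 1272 in KO. The log2 differences were -0.10 ± 0.047 and -0.11 ± 0.046 with limma adjusted p-values of 0.257 and 0.205, and under cyclic loess they were -0.015 and -0.026.

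In the central stalk, the gamma subunit gene Atp5c1 was at 529, 582 and 551 against 505, 504 and 524, and the epsilon subunit gene Atp5e at 220, 235 and 223 against 200, 202 and 206. Neither overlapped, while the delta subunit gene Atp5d did in 1 pair of libraries, at 442, 481 and 434 against 427, 423 and 434. Atp5pb, of the peripheral stalk, was at 444, 454 and 434 in WT against 404, 419 and 399 in KO, with a log2 difference of -0.12 ± 0.049 and a limma adjusted p of 0.193. The proton ring is built from subunit c, which 3 genes encode with the same mature protein. Per base of the principal transcript Atp5g3 gave 80.5% to 82.2% of their sum in all 6 libraries, Atp5g2 12.1% to 13.5% and Atp5g1 5.31% to 6.37%. Neither the order nor the shares of these genes set the groups apart. The inhibitor gene Atpif1, outside the rule, was at 324, 344 and 345 in WT against 282, 314 and 330 in KO, with overlap.

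The difference followed the level of a gene across the whole table. When all tested genes were ordered by mean scaled count per exonic base and divided into 10 groups of like size, the median log2 difference went from 0.57 in group 1, the lowest, through 0.02 in group 5 to -0.11 in group 10. Of the 97 respiratory genes, 58 lay in the upper 3 groups, with 28 in group 10. Their medians in these 3 groups were -0.09, -0.08 and -0.12, against -0.05, -0.07 and -0.11 for all genes there. In groups 4 to 7, which held 6, 8, 5 and 9 of them, their medians were -0.04, -0.09, -0.08 and -0.06, against 0.06, 0.02, -0.01 and -0.04 for all genes. Group 2 held 5 of them with a median of 0.07 against 0.22, and group 3 held 6 with one of 0.20 against 0.11. Apart from group 3, the respiratory genes thus had the lower median in each group that held any, by the smallest margin in group 9 and by 0.01 in group 10, though only group 10 held more than 19 of them. In the plot of difference against level, Ndufa4l2 and Cox6b2 lie far above the falling line of medians at the left. Under cyclic loess the 97 genes had a median of -0.11, below that of each of the 10 groups, of which group 10 was the lowest at -0.05. No gene had a mean above 1 scaled count per exonic base, and the highest reached 0.850.

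**Figure D5:**
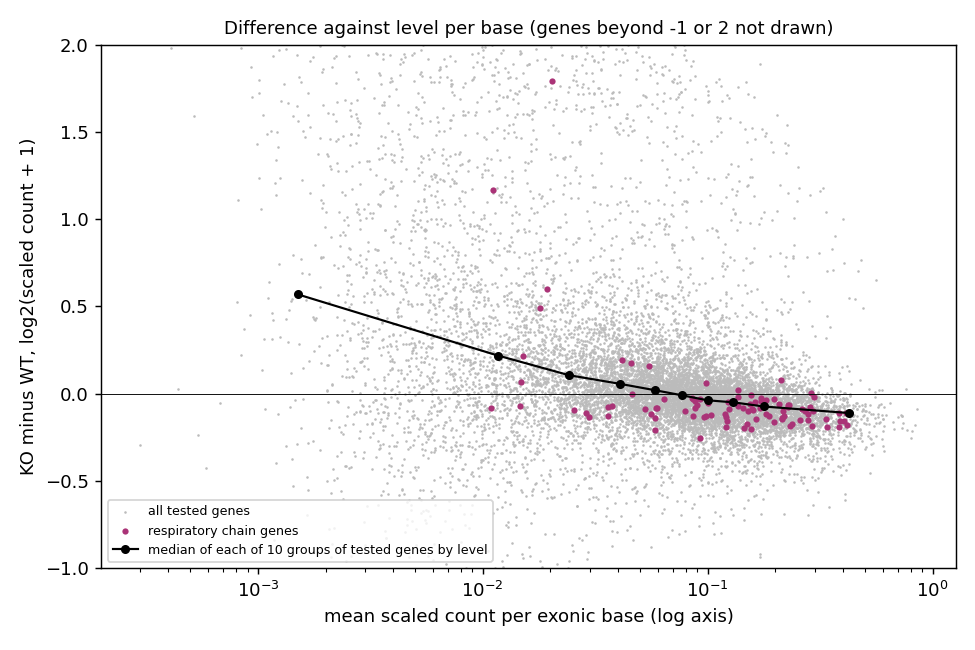
Each point is a gene, with the mean scaled count per exonic base on a log axis and the log2 difference (KO minus WT) on the vertical axis; respiratory genes are purple, other tested genes grey, and the black line joins the medians of the 10 groups of tested genes by level. The line falls from 0.57 to -0.11, and 58 of the 97 purple points lie in its last 3 groups; with the library factors undone the line and the points shift upward alike, by about 0.12.

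Before scaling, libraries of 1 group agreed closely on these genes, while in scaled counts WT 2 was the highest library for 64 of the 97. Taking reads before scaling, the variance within groups divided by the mean was computed for genes with at least 50 scaled counts on average. Its median was 0.400 over the 91 respiratory genes of that level and 1.83 over all 10955 genes. In groups 8, 9 and 10 by level per exonic base, where most respiratory genes lay, its median over all such genes was 1.62, 1.41 and 1.27. Reads drawn at random from libraries of equal depth would give a mean of 1, a median of 0.839 and a value under 1 for 59.4% of genes. Depth differed within each group here, so these reference values are only approximate. A value under 1 was found for 80 of the 91 genes (87.9%), against 31.7% of all genes. The smallest medians were those of complex V (0.319), complex IV (0.395), complex III (0.398) and the accessory subunits (0.398), and the complex II assembly factors had the highest, at 1.02.

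Regulators and neighbours of the chain in metabolism were read from lists that were set apart from the rule. Of 19 tested regulators of mitochondrial biogenesis, 14 were higher and 5 lower in KO (median difference 0.05 on the log2 scale). Of these 0 passed the adjusted threshold, and 1 was higher at an unadjusted limma p under 0.05, against 14.7% of all genes. That gene was Gabpb1, a subunit of the factor that binds the ETS motif above, at 326, 310 and 314 in WT against 344, 350 and 360 in KO, with a limma adjusted p of 0.170. Nrf1 (345, 341 and 359 against 356, 348 and 378), Tfam (300, 283 and 291 against 306, 305 and 316) and Sp1 (1340, 1442 and 1393 against 1282, 1322 and 1345) had adjusted p-values of 0.641, 0.388 and 0.343 in limma. The coactivator gene Ppargc1a was at 4, 1 and 0 in WT against 2, 1 and 0 in KO, and was not tested.

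Among 18 genes of pyruvate dehydrogenase and the citric acid cycle 5 were higher and 13 lower, with a median of -0.07. Suclg2, a subunit of succinyl-CoA synthetase, had the smallest p of the list and was one of the higher genes, at 236, 212 and 217 in WT against 247, 248 and 254 in KO, with a limma adjusted p of 0.198. Pdha1, of pyruvate dehydrogenase, and Idh3a, of isocitrate dehydrogenase, were also higher without overlap, at 809, 792 and 765 against 846, 861 and 832 and at 504, 467 and 481 against 510, 539 and 526. Cs, Idh3b and Idh3g were lower without overlap. Cs was at 1183, 1282 and 1181 in WT against 1128, 1148 and 1173 in KO. Idh3b was at 589, 649 and 603 against 568, 572 and 579, and Idh3g at 507, 585 and 508 against 484, 500 and 497. Of 22 genes for electron entry, coenzyme Q synthesis and inner membrane carriers 8 were higher and 14 lower. At an unadjusted limma p under 0.05, 5 were lower, against 9.68% of all genes. These were Etfa, which passes electrons from fatty acid oxidation, the uncoupling protein gene Ucp2, the channel genes Vdac1 and Vdac2 and the phosphate carrier gene Slc25a3, with limma adjusted p-values of 0.158 to 0.198. Etfa was at 393, 369 and 375 in WT against 342, 339 and 323 in KO, and Vdac2 at 821, 977 and 865 and at 724, 753 and 800. A list of 3 ATP synthase assembly factors had 1 higher and 2 lower. With all 6 libraries no gene of these lists passed the adjusted threshold, where 0 of all 13260 genes did.

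For 28 of the 97 genes an exon overlaps an exon of another listed gene on the opposite strand, and for 0 on the same strand. Among the genes given above these include Cox4i1 with Emc8, Ndufa4l2 with Shmt2, Cox6a2 with Itgad, Atp5a1 with Haus1, Atp5pb with Wdr77 and Ndufs3 with Kbtbd4. The library kit marked strand, but the strand setting of the counting step is not stated, so reads of such pairs may not be separated in these counts.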

How the data were processed

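Libraries for mRNA sequencing were made with a stranded kit from 3 µg of total RNA and read as 72-base single reads, per the labels' protocols. The authors' deposited table holds 1 whole-number score per gene and library, treated as reads multiplied by a library factor and rounded. DESeq2 1.36.0, featureCounts 2.0.3, Picard 2.27.4, STAR 2.7.10a, Trimmomatic 0.39 and mm10 are listed, without roles, per the submitters' processing notes. If Picard served to drop reads with the same start, which is not stated, the value of an abundant short gene would be bounded by its length.

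Factors were read from whole numbers that never occur or, in the KO libraries, occur too often. Undoing them left 4.08% to 12.6% of values in the KO libraries uncertain by 1 read, so no count model was fitted. A two-sided limma fit (version 3.58.1, R 4.3.3, trend option on) was made to log2(value + 1) of 13260 genes, those reaching 10 in 3 or more libraries. Group was the only term, and p-values were adjusted by Benjamini-Hochberg, with a threshold of 0.05. On this scale the change of a gene with few reads is understated. The code was tested on simulated data. Lengths came from GENCODE M21, as the union of exons or the longest principal (APPRIS) transcript, using Python 3.11.15 and pandas 2.3.3. All 97 genes had the same coordinates there. The lowest sum of a gene was 3, 0 genes were on the mitochondrial chromosome and 0 library columns were left unmapped.

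The members, lists and tests were chosen with earlier results of these data known. The text names, in each class, the 5 genes with the smallest p, the highest per exonic base and the largest and smallest difference, with a set of preset subunits, Hdac2 and up to 3 genes of each list. Other genes were named after their values were seen. Alternatives were 3 scalings, another pseudocount, no filter or a mean of at least 100, no intensity trend, each library left out, WT 1 as the only WT library, the replicate block and subunits only. Undoing the library factors was added after the values were seen. Values of 1 member, which stays in the counts, medians and sums, are not reported here. Among the genes without a listed promoter were Atp5a1, Atp5mpl, Cox4i1, Cox4i2, Cox6a2, Cox6c, Cyc1, Ndufa2, Ndufa4l2, Ndufaf6, Ndufb1-ps, Ndufb9, Ndufs1, Sdhc, Uqcrb, Uqcrc2 and Uqcrq.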

Additional observations from a re-analysis of the deposited data

How the results depend on the processing

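With all 6 libraries the count of respiratory genes past the adjusted limma threshold was 0 in each direction under every scaling, filter, pseudocount and variance setting tried. Leaving out each library in turn gave 0 to 1 in each direction, the 1 being Sdhc lower and Ndufa4l2 higher without WT 1. Hdac2 ranged from -0.45 to -0.38 over these fits and passed without WT 1, at -0.38. At an unadjusted p under 0.05 the higher count was 1 and became 2 with a pseudocount of 5 or no filter, 5 without the intensity trend or with the library factors undone, and 0 with a mean of at least 100, with WT 1 alone or for subunits only. The lower count was 12 and became 7 after scaling to the library total, 5 after upper-quartile scaling and 0 with WT 1 alone or with the factors undone. Over single libraries left out these counts ran from 0 to 2 and from 1 to 14. Higher genes without overlap numbered 5 and became 0 under cyclic loess, 1 with a mean of at least 100 or for subunits only, 11 with WT 1 alone and 17 with the factors undone, where lower ones went from 34 to 2. Leaving out single libraries gave 5 to 7 and 35 to 49.

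With the library factors undone the median was 0.12 over all genes, 0.035 over the members and 0.041, 0.038, 0.043, -0.034, 0.14, -0.0090, 0.024, 0.076 and 0.023 for complex I core, accessory and assembly genes, complex II and its assembly factors, complex III, cytochrome c, complex IV and complex V. The median of complex III was -0.070 with WT 1 alone, and that of complex IV was -0.10 under cyclic loess and -0.12 with a mean of at least 100. With single libraries left out the medians ran from -0.10 to -0.066 over the members, -0.11 to -0.048, -0.097 to -0.065, -0.090 to -0.029, -0.18 to -0.093, -0.038 to 0.045, -0.15 to -0.093, -0.17 to -0.054, -0.090 to -0.033 and -0.11 to -0.063 in the same order of classes; the lowest value of complex IV was that without WT 1.

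Undoing the factors moves all genes upward alike (0.11 to 0.12 for the named members), so the sign turned for those between -0.12 and -0.02, 24 of 62 named members: Atp5a1 0.0094, Atp5b 0.023, Atp5c1 0.0056, Atp5d 0.043, Atp5g2 0.041, Atp5g3 0.097, Atp5mpl 0.10, Cox5a 0.052, Cox5b 0.076, Cox7a2l 0.081, Cox7b 0.0905, Cycs 0.024, Ndufa1 0.022, Ndufaf2 0.0496, Ndufaf5 0.0024, Ndufaf7 0.037, Ndufaf8 0.0022, Ndufb1-ps 0.035, Ndufb11 0.10, Ndufs1 0.077, Ndufv1 0.041, Ndufv2 0.029, Sdhd 0.012 and Uqcrc1 0.072. With WT 1 alone 6 did: Cox7a2l 0.11, Ndufaf8 0.0042, Ndufb2 -0.062, Sdhaf3 -0.028, Sdhd 0.0062 and Uqcrc1 0.0202. Under cyclic loess 3 did: Cox7a1 -0.11, Ndufb2 -0.026 and Ndufs1 0.0059. Without WT 2 the values of 5 turned (Atp5g3 0.0066, Cox5b 0.0303, Cox7a2l 0.017, Ndufb11 0.023 and Uqcrc1 0.0005), without WT 1 that of Atp5mpl 0.0097, without KO 1 that of Atp5mpl 0.0075 and without KO 3 that of Ndufaf2 0.017. With single libraries left out these members ran from -0.0563 to 0.0066 (Atp5g3), -0.0405 to 0.0097 (Atp5mpl), -0.1012 to 0.0303 (Cox5b), -0.1155 to 0.0171 (Cox7a2l), -0.1366 to 0.0173 (Ndufaf2), -0.0534 to 0.0226 (Ndufb11), -0.0843 to 0.0005 (Uqcrc1). Apart from the factors undone, the cause of these changes was not tested.

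Deviations from the group mean were correlated across genes, with r = 0.53, -0.36 and 0.024 for libraries of the same number, 1 to 3. Between libraries of different numbers r ran from -0.55 to 0.62. These values do not show whether the numbers pair the samples. With the replicate number as a block 1 respiratory gene in place of 12 was lower at an unadjusted p under 0.05, and the adjusted p of Hdac2 was 0.134. Depth limits the restricted isoforms most, since they rest on 3 to 49 scaled counts per library.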
